A study of Drosophila melanogaster with 2 samples.

Results

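The genes described here are 10 that mark the identity of neurons or build the presynaptic side of the synapse: elav, fne, Rbp9, Syx1A, Syt1, nSyb, brp, para, cac and ChAT. They were taken by name, whatever their values, from 13945 protein-coding genes on the 6 main chromosome arms, and all 10 matched a gene of the Ensembl annotation. Each was examined for peaks of the nuclear receptor Hr96 in a chromatin immunoprecipitation and sequencing experiment (ChIP-seq). The flies were adult females of the strain Hr96-GFP, a transgenic line that expresses Hr96-eGFP, with the GFP at the C-terminus of Hr96. For the pull-down of the fusion the labels name an antibody to GFP in one place and Hr96 as the antibody in another. The former was followed here. Biological replicates 1 and 3 make up the only group, so there are 2 samples in all. Age, the number of animals per sample and the expression pattern of the fusion are not stated in the labels. No sample without the fusion was analysed here, so signal unrelated to Hr96 cannot be told apart from Hr96 binding. Chromatin came from whole animals, in which neurons are mixed with every other tissue, so binding in a small share of cells and weak binding in many cannot be told apart.

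elav, fne and Rbp9 form the fly ELAV/Hu family of RNA-binding proteins, and elav is the classical marker of fly neurons. Syx1A, nSyb and Syt1 encode a membrane SNARE, a vesicle SNARE and the calcium sensor of the vesicle, which together bring about transmitter release. Bruchpilot (brp) builds the active zone where vesicles fuse, para is the voltage-gated sodium channel of the action potential, cac is the presynaptic calcium channel, and ChAT makes acetylcholine, the main fast excitatory transmitter of the fly brain. Hr96 itself is known as a receptor acting on sterol and triacylglycerol metabolism, mainly studied in gut and fat body.

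The strongest Hr96 peaks at these genes were at elav, ahead of Rbp9, ChAT and Syx1A. In the authors' list of 3607 peaks thresholded by irreproducible discovery rate (IDR), a measure of how alike peaks rank in replicates, 3 of the 10 genes had a summit in the window of 500 bp around a transcription start site (TSS): elav, Rbp9 and Syx1A. The same was true of 18.1% of all protein-coding genes and of 28.3% of the 3923 genes within the length range of the 10 (4164 to 78070 bp). Inside the gene body, 4 of the 10 (elav, Rbp9, Syx1A and ChAT) had an IDR summit, against 10.8% of all protein-coding genes and 26% of those 3923. The 3923 genes share the length range of the 10 but were not matched to them on length. At the TSS windows, elav and Syx1A had a summit in both replicates and Rbp9 in replicate 1 alone. With the 3607 strongest peaks of replicate 3 alone, elav was the only gene of the 10 with a summit in the window (18.4% of all genes), and 3 had one in the body (11.1% of all), the Syx1A summit ranking 4328 there. With the 3607 strongest of replicate 1 alone the counts were 3 at TSSs (18.6% of all) and 4 in bodies (10.6% of all). A window of 250 bp left Syx1A alone (15% of all), 1000 bp gave the 3 genes again (20.5% of all), and the 1803 strongest IDR peaks left elav and Rbp9 both at TSSs (11.3% of all) and in bodies (5.84% of all). The Rbp9 summit at the TSS ranked 1802, just inside that cut. Whole peak intervals in place of summits gave 3 genes at TSSs (19.4% of all) and 4 in bodies (18.5% of all). All 3607 peaks of the IDR list are the 3607 strongest of the pooled list, and 80.1% of them had a summit in both replicates within 100 bp. No test was made of either count, since 10 chosen genes are not replicates. The other 6 genes (fne, Syt1, nSyb, brp, para and cac) had no IDR summit at a TSS or in the body.

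In all, 6 IDR summits lay at 4 of these genes, and the sequences around them are shown because the results below turn on them. They were read from the RefSeq copy of dm6, in the direction of transcription of the named gene, as 201 bases centred on each summit. For Syx1A, whose summit lies in the 5′ untranslated region (5′ UTR), the stretch instead runs from the upstream end of the peak to 10 bases past the TSS. That stretch does not hold the summit. The motif search and GC content for Syx1A still used the 201 bases centred on the summit. Capitals mark matches to the searched motifs.
elav upstream, chrX:523380-523580, minus strand: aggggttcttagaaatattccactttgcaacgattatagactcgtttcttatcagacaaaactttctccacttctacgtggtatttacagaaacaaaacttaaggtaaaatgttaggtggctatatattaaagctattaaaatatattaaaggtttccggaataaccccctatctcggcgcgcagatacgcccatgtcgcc
elav intron, chrX:522542-522742, minus strand: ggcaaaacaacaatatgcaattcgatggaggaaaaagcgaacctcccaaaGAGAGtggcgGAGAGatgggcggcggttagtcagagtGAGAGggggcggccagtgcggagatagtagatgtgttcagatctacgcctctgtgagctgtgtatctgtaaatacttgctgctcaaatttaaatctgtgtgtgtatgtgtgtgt
Rbp9 upstream of the second TSS, chr2L:2956499-2956699, plus strand: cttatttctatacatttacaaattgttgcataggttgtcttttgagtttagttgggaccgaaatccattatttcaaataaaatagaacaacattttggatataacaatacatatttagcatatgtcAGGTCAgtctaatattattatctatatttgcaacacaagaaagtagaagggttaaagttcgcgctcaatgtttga
Rbp9 intron, chr2L:2957678-2957878, plus strand: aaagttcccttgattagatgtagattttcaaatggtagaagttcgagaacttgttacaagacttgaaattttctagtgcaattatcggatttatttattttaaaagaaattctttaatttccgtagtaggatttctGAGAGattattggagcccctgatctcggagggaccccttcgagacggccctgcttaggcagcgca
Syx1A start, chr3R:24105754-24105903, minus strand: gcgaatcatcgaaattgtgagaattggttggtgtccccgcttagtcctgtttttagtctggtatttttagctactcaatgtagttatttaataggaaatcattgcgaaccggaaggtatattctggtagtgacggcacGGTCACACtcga
ChAT intron, chr3R:18719803-18720003, plus strand: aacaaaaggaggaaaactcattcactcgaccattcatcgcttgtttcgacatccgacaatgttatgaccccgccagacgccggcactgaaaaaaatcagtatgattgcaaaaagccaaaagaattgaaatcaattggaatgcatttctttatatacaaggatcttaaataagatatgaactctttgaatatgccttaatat

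The motifs searched on both strands, within 100 bp of each summit, were AGGTCA (the core of nuclear receptor sites), TATCGATA (the DRE promoter element), GGTCACAC (part of the M1BP promoter motif, sharing GGTCA with the first), GAGAG (bound by GAGA factor), AGGTGGCGC (part of the CTCF insulator motif) and CACGTG (an E-box). AGGTCA was found at 1 of the 6 summits, 28 bp from the Rbp9 summit at the second TSS, and it occurs in 3.52% of all IDR windows and in 3.26% of windows of the same length centred on TSSs. GGTCACAC spans the Syx1A TSS, 65 bp from that summit, and is in 2.77% of IDR windows and 5.68% of TSS windows. GAGAG matched 3 times beside the intronic elav summit, the nearest 11 bp away, and once beside the intronic Rbp9 summit, 38 bp away. It is common, with a match in 30% of IDR windows and 25% of TSS windows. None of the 6 letter strings was found at the upstream elav summit or at the ChAT summit, and TATCGATA, AGGTGGCGC and CACGTG were found at none of the 6. GC content of the 6 windows ran from 29.4% to 48.3% (median 38.3%, against 39.3% over all IDR windows).

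elav (FBgn0260400, dm6 chromosome X, 509235 to 523226, minus strand), which encodes the neuron-specific RNA-binding protein of that name, held the strongest peaks of the 10 genes. Its first summit lay 254 bp upstream of the TSS at 523226, in a peak from 523337 to 523645, with a signal of 688.9 and rank 53 in the IDR list. Signal here is the strength the authors' peak caller gave a peak against a control, on a scale of its own in each library. The signal of the upstream elav summit was 425.4 (rank 64) in replicate 1 and 261.9 (rank 39) in replicate 3, whose summit lay 18 bp away. The second summit was 584 bp inside the gene from the same TSS, just past the 500 bp window, in an intron. Its signal was 401.1 (rank 193) in the IDR list, 267.1 (rank 209) in replicate 1 and 124.8 (rank 223) in replicate 3, with the summit at the same base in all 3. Both replicates thus placed both sites among their 223 strongest regions. Of all protein-coding genes, 52 (0.373%) had a pooled summit at a TSS as strong as that of elav or stronger, elav included.

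Neither elav site belongs to elav alone. The locus overlaps arg, which encodes arginase on the opposite strand (509435 to 528028), and both summits lay in arg introns. The upstream summit was 14045 bp and the intronic one 13207 bp from the nearest arg TSS. The noncoding gene lncRNA:enrr starts at the same base as elav, so the upstream summit was equally near to both, and the intronic one lay in an intron of lncRNA:enrr too. The internal elav TSS at 520285, which starts 1 annotated transcript, had no IDR or pooled summit nearby (the nearest was 2357 bp away). Replicate 3 alone listed weak summits there, 139 bp upstream with a signal of 22.2 (rank 5244) and 348 bp upstream with 11.7 (rank 18701).

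Rbp9 (FBgn0010263, chromosome 2L, 2954762 to 2968434, plus strand), a neuronal member of the ELAV family that is also used in the female germ line, had a pair of IDR summits around its second TSS and none at its first. The stronger lay in an intron 867 bp downstream of the second TSS (2956911), in a peak from 2957570 to 2957985, with a signal of 239.6 (rank 532). That site had 173.6 (rank 485) in replicate 1 and 55.8 (rank 1165) in replicate 3. The weaker lay 312 bp upstream of the same TSS, also in an intron, with a signal of 102.6 and rank 1802, at the middle of the IDR list. It was seen in replicate 1 (78.4, rank 1482), and replicate 3 listed no summit within 100 bp, its only Rbp9 summit being the downstream one. The Rbp9 site near the TSS was thus in the replicate 1 list alone, and the intronic site in both. No other annotated gene overlaps either summit.

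fne (FBgn0086675, chromosome X, 12917477 to 12950417), which completes the ELAV family, had no IDR summit, and the nearest lay 7461 bp from its first TSS. Its pooled summits were weak, 6 in number, with signals from 24.3 to 44.4 (ranks 5344 to 21714), where the weakest IDR peak had 59.9. The strongest of the 6 lay in an intron, 8557 bp downstream of the nearest TSS, and was matched in replicate 1 (26.7), while the nearest replicate 3 summit (15.3) was just beyond the 100 bp used for matching. At the third TSS, 21040 bp into the gene, the pooled list had summits 415 bp upstream (31.3) and 107 bp downstream (24.3), both matched in replicate 3 (19.8 and 18.8) and neither in replicate 1. A further pooled summit lay upstream of the gene, 531 bp from the first TSS and so just past the window, with a signal of 49.4 (rank 4593). It was 33.5 (rank 4251) in replicate 1 and 11.5 (rank 19678) in replicate 3.

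**Figure D1:**
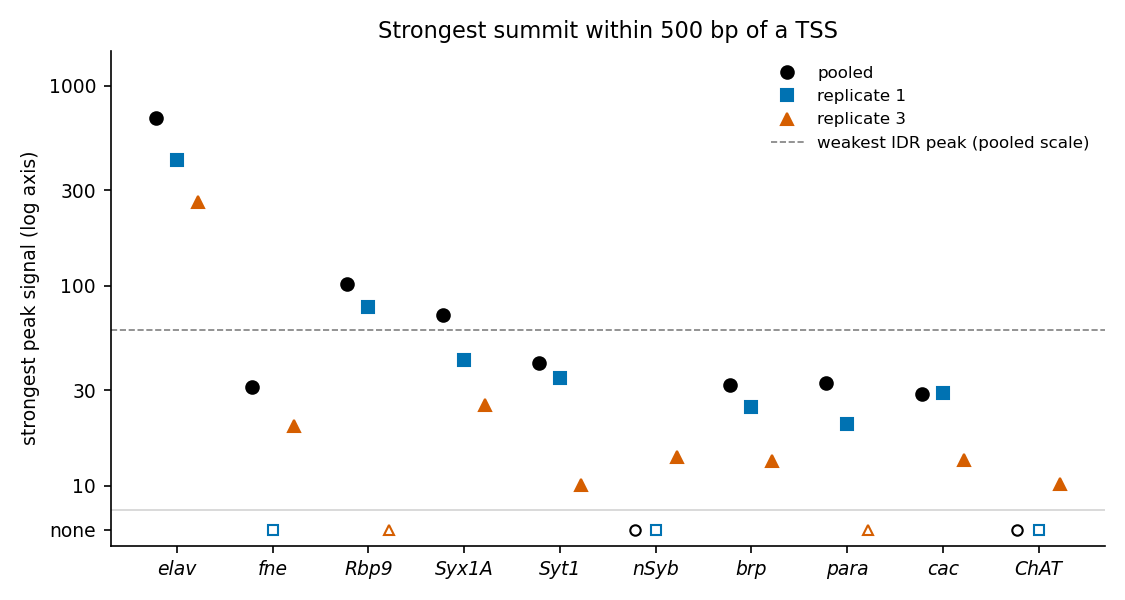
Signal of the strongest summit within 500 bp of any TSS of each of the 10 genes (vertical log axis) in the pooled list and in each replicate, with open symbols below the grey line where the list has none and the dashed line at the weakest IDR peak (59.9, on the pooled scale). elav stands at 688.9 in the pooled list, Rbp9 and Syx1A are the other genes above the dashed line, and signal scales differ between the lists.

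Among the release genes, Syx1A (FBgn0013343, chromosome 3R, 24101600 to 24105763, minus strand), which encodes the syntaxin of the plasma membrane, had an IDR summit at its start, where Syt1, nSyb and brp had none. The summit lay 67 bp downstream of its single TSS, in the 5′ UTR, with a signal of 71.1 (rank 2900) and the highest q-value of the 6 sites (q = 0.059, from the deposited −log10 column). It was in both replicates, at 42.6 (rank 3081) and 25.3 (rank 4328) in replicates 1 and 3. Syx1A lies, on the same strand, within the span of eIF4EHP (24063077 to 24108960), a cap-binding translational repressor, and the summit was in an eIF4EHP intron, 3264 bp from the nearest TSS of that gene. Another region 705 bp upstream of the Syx1A TSS, past the window and also inside eIF4EHP, had a pooled signal of 57.5 (rank 3816), just under the IDR minimum. Replicate 3 gave that upstream region 44.0 (rank 1777), more than the 25.3 at the start site, and replicate 1 listed nothing there.

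Syt1 (FBgn0004242, chromosome 2L, 2772327 to 2799979), the calcium sensor gene, had 1 pooled summit at a TSS, 178 bp upstream of the first, with a signal of 41.1 (rank 6084, q = 0.47). That site was 34.6 (rank 4070) in replicate 1 and 10.1 (rank 26062) in replicate 3, a rank near the bottom of the list of 30000 regions. nSyb (FBgn0013342, chromosome 3L, 1630348 to 1637752), the vesicle SNARE gene, had the fewest summits of the 10. The pooled list had 1 summit in it, in an intron (21.5, rank 28860), replicate 1 had none, and replicate 3 had 1 other, 303 bp from a TSS (13.9, rank 12563). A strong IDR peak lay outside nSyb, 1817 bp upstream of its first TSS, with a signal of 233.2 (rank 565). It sat within 500 bp of TSSs of Bgb and Mettl2 and inside no gene, and these neighbours were named after the values were seen.

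brp (FBgn0259246, chromosome 2R, 9503765 to 9541565), the active zone gene, had 14 pooled summits, more than any other of the 10, and none reached the IDR list. Their signals ran from 21.8 to 33.0 (ranks 9584 to 28216), and each had a q-value over 0.5. Its summits were spread along the gene, with 2 within 500 bp of the second TSS (31.7 and 28.8), none at the other TSSs in the pooled list, and 3 in coding exons. Replicate 3 had its own strongest TSS summit at the first brp TSS (13.2, 309 bp away). Of the 14 sites, 3 had a summit within 100 bp in both replicates.

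The channel genes, long and on the X chromosome, had only weak regions, at 0.51 (para) and 0.93 (cac) pooled summits per 10 kb of gene body, where the X as a whole had 1.15. para (FBgn0285944, 16455027 to 16533096), the sodium channel gene, had 4 pooled summits in 78.1 kb, and the nearest IDR summit to any of its TSSs was 100589 bp away. A pooled summit lay 10 bp from its first TSS (32.5, rank 9970), matched in replicate 1 (20.3) and not in replicate 3. At the start shared by 58 annotated para transcripts no list had a summit in the window, and the nearest pooled one was 5672 bp away. cac (FBgn0263111, 11931280 to 11985087), the calcium channel gene, had 5 pooled summits. A pair of them flanked the TSS of 16 annotated transcripts, at 174 bp (28.7, rank 13930) and 41 bp (22.4, rank 26316), and replicate 1 listed a single summit 88 bp away (28.9, rank 5358). Replicate 3 had no summit at that TSS and 1 at another cac TSS, 225 bp upstream, which lay in the 3′ UTR of the neighbouring gene gd.

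ChAT (FBgn0000303, chromosome 3R, 18705501 to 18732344, plus strand), which encodes choline acetyltransferase, had an IDR summit deep in the gene and none at its start, where replicate 3 alone listed a weak one (10.2, rank 25293). The summit lay in an intron, 14402 bp downstream of the TSS, in a peak from 18719695 to 18720110, with a signal of 86.5 (rank 2260, q = 0.015). It was present in replicate 1 (49.7, rank 2512, 55 bp away) and in replicate 3 (29.9, rank 3350, 10 bp away). That summit also lay in the exon of lncRNA:CR46265 (18719623 to 18719998), 280 bp from the start of that noncoding gene. The vesicular acetylcholine transporter gene VAChT is nested at the 5′ end of ChAT and shares its TSS, the well-known cholinergic locus. In an intron of both genes, 745 bp from the shared TSS, the pooled list had a weaker summit (46.5, rank 5010), which was 29.8 (rank 5082) in replicate 1 and 11.2 (rank 20819) in replicate 3. Of the other pooled ChAT summits, 3 lay in VAChT as well, and 2 in coding exons of CG7715, a gene nested in ChAT.

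**Figure D2:**
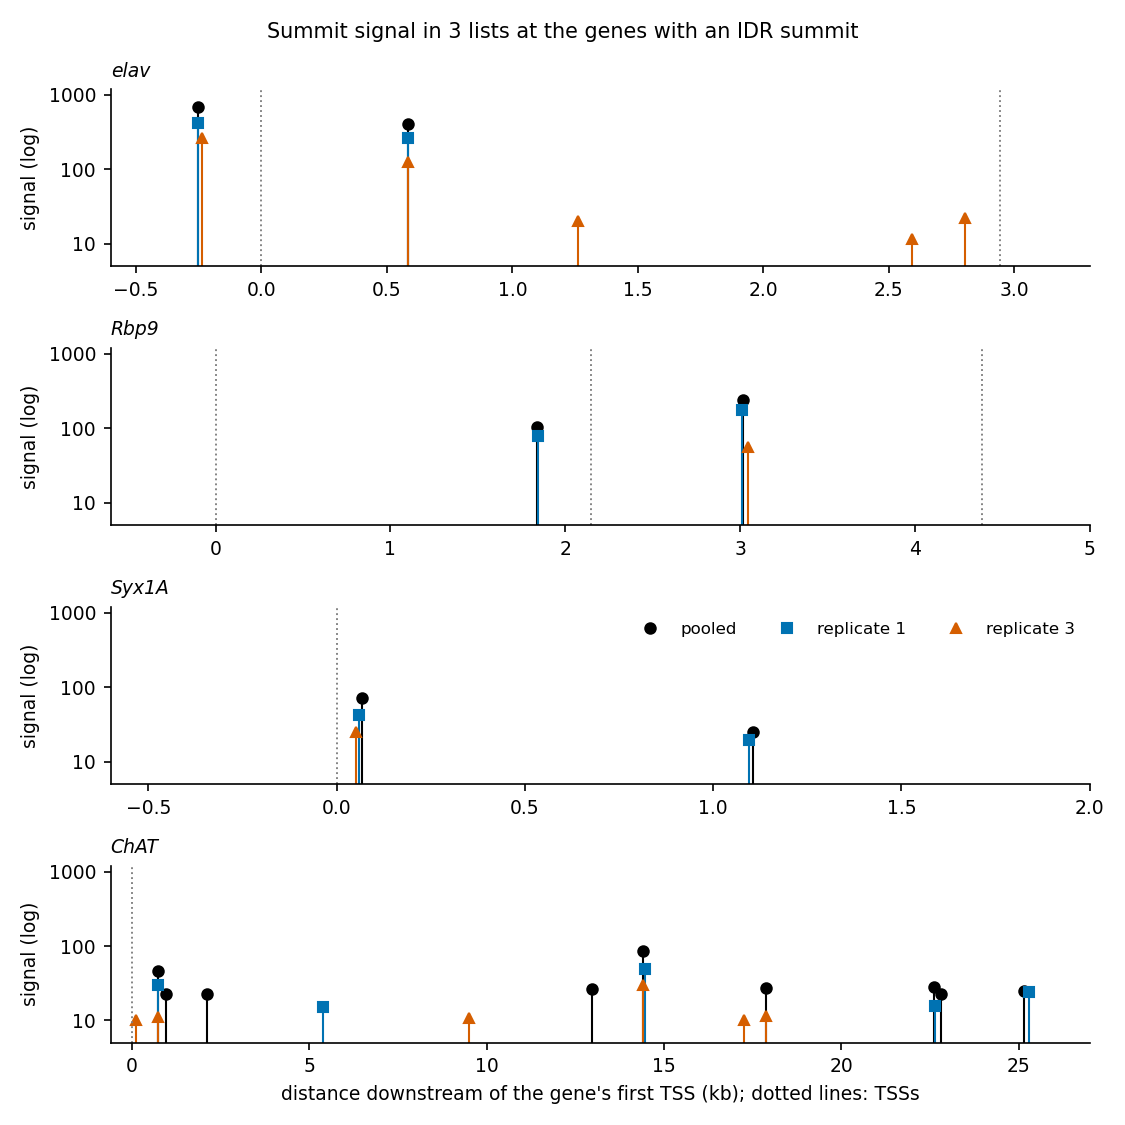
Signal (vertical log axis) of each summit against its distance downstream of the gene's first TSS in kb, for the pooled list and both replicates, at the genes with an IDR summit, with dotted lines at TSSs (Rbp9 is drawn to 5 kb, Syx1A to 2 kb and elav to 3.3 kb). Both elav sites, the stronger Rbp9 site, the Syx1A start and the ChAT intron have a symbol of every list, while the Rbp9 site near the second TSS has none from replicate 3.

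Across the 6 IDR sites, 5 (83.3%) had a summit within 100 bp in both replicate lists, close to the share of all IDR peaks. Replicate 1 had the higher signal at each of the 5, by 0.70 to 1.64 on the log2 scale (median 0.75), where the median over all matched IDR peaks was 0.90 (SD 0.84 across peaks). All 5 ratios lay within 1 SD of that median, and the 2 libraries have signal scales of their own. Of the 6 summits, 4 were in introns, 1 in a 5′ UTR, 1 upstream of its gene, and none in a coding exon. Apart from elav, the order of the genes by their strongest TSS summit was not the same in the libraries. In replicate 1 the order after elav was Rbp9, Syx1A, Syt1, cac, brp and para, with fne, nSyb and ChAT at none. In replicate 3 it was Syx1A, fne, nSyb, cac, brp, ChAT and Syt1, with Rbp9 and para at none. From nSyb on, the replicate 3 signals ran only from 13.9 to 10.1, where that list had a median of 12.9 and a minimum of 9.4.

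The longer lists, which hold 30000 peaks and background regions each, added many weak regions at these genes. In the pooled list 8 of the 10 genes had a summit in the 500 bp window of a TSS (39.5% of all protein-coding genes), as did 7 in replicate 1 (39% of all) and 8 in replicate 3 (44.2% of all). The 10 genes had a median of 3 TSSs, against 1 over all protein-coding genes, and so more windows in which a region could fall. In the pooled list a window of 250 bp gave 6 (31.1% of all) and 1000 bp gave all 10 (48.1% of all). The median strongest signal was 36.8 over those 8 genes in the pooled list and 52.3 over the 5506 genes with a summit there. All 10 genes had a pooled summit in the body (37.5% of all protein-coding genes, most of them shorter, with a median length of 2166 bp against 27248 bp here). Of 49 pooled summits at the 10 genes, 40 had a q-value over 0.5, as did 78.9% of the pooled list, and 12 (24.5%) were matched in both replicates, against 25.3% of the list. In 36 cases the pooled summit was in an intron of the gene.

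**Figure D3:**
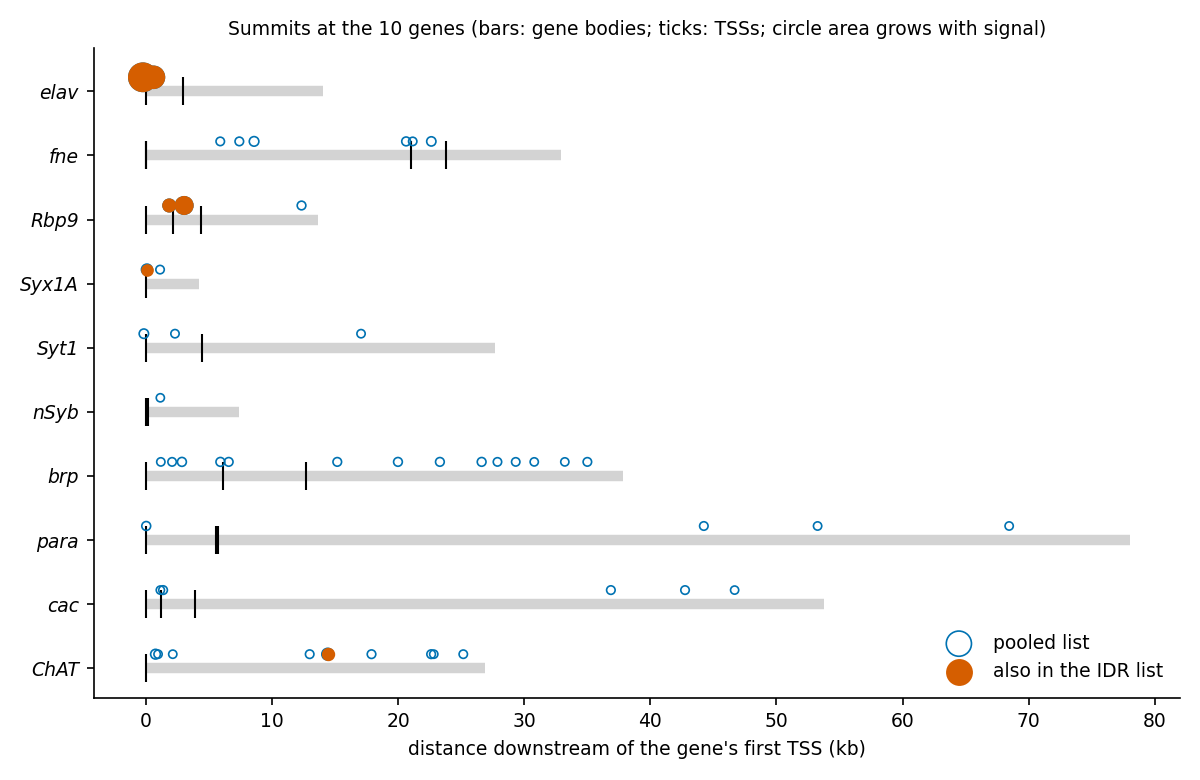
Pooled summits (open circles) and those also in the IDR list (filled circles) along the 10 genes, by distance downstream of the first TSS in kb, with grey bars for gene bodies, vertical ticks for TSSs and circle area growing with signal. The filled circles are at elav, Rbp9, Syx1A and ChAT, and the 14 open circles along brp all have signals of 33.0 or less.

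The density of pooled summits in gene bodies lay above that of the arm for some of the 10 genes and below it for others. The 4 genes on the X (elav, fne, para and cac) had 0.89 pooled summits per 10 kb of gene body, below the 1.15 of the whole X. brp had 3.70 (arm 2R, 2.31) and ChAT with Syx1A 3.55 (arm 3R, 2.61), while Rbp9 with Syt1 had 1.21 (arm 2L, 2.73) and nSyb 1.35 (arm 3L, 2.34). By single libraries, ChAT with Syx1A had 2.26 in each replicate, below the arm (2.66 in replicate 1 and 2.49 in replicate 3). For brp the values were 2.38 in replicate 1 (arm 2.28) and 3.70 in replicate 3 (arm 2.27). The X genes, Rbp9 with Syt1, and nSyb were below their arms in both replicates. The arm values count all summits over the whole arm, inside and outside genes. The pooled nSyb value rests on 1 summit and that of Rbp9 with Syt1 on 5. The X held 9.05% of pooled summits and 17.2% of IDR summits.

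**Figure D4:**
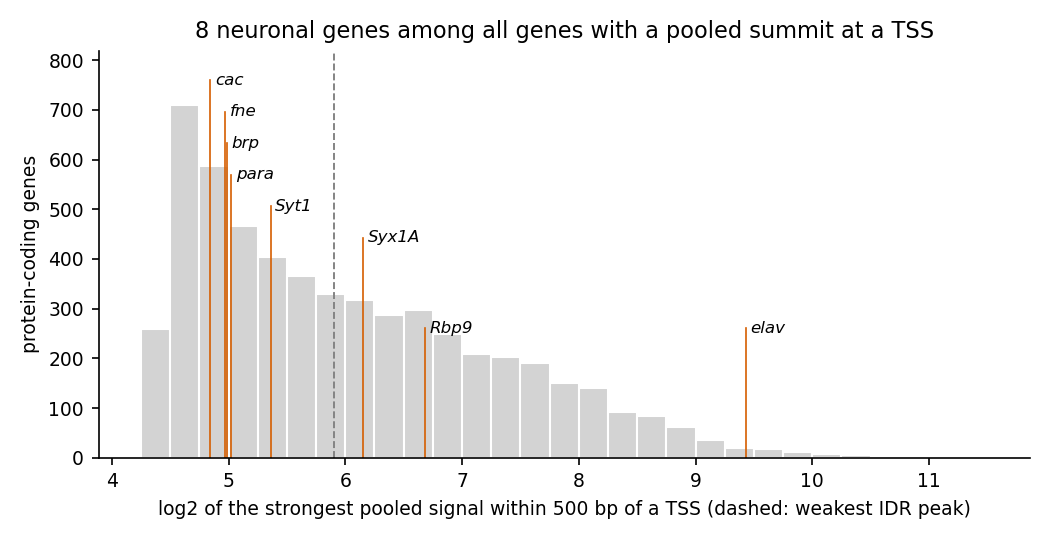
Distribution over protein-coding genes of the log2 strongest pooled signal within 500 bp of a TSS, for the 5506 genes with such a summit, with the 8 of the 10 neuronal genes that have one marked by lines and the weakest IDR peak by a dashed line. elav lies in the far upper tail (0.373% of all genes are as strong or stronger), and fne, brp, para and cac lie near the lower end.

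Other neuronal genes were examined through 4 lists with 110 measured genes, and 16 of them (14.5%) had an IDR summit at a TSS by the same window, where 18.1% of all protein-coding genes did. In bodies, 15 (13.6%) had an IDR summit, where 10.8% of all genes did. In the whole pooled list, 62 (56.4%) had a summit in the TSS window, where 39.5% of all genes did. None of these shares was adjusted for gene length or number of TSSs. Among the 3923 genes in the length range of the 10, 28.3% had an IDR summit at a TSS and 26% in the body. That range was set by the 10 and not by the 110, so these 2 shares are not a length-matched reference for the 110. The median strongest signal of those 16 was 101.3, and that of all 2526 genes with such a summit was 126.2. Genes of transmitter synthesis, transport and receptors had none at a TSS, 0 of 30. Were they a random draw, counting error would allow a share of up to 10%. These genes were chosen by name with earlier results known, so no conclusion is drawn from that limit. VAChT, among the 30, shares its TSS with ChAT, which had no IDR summit there. Of the same 30, 1 gene, that of the acetylcholine receptor subunit nAChRalpha3, had an IDR summit in its body. Release machinery and active zone genes had 5 of 28, led by Vps33B (604.6), a gene of general vesicle trafficking, whose summit is also within 500 bp of a TSS of Fur1. Then came Csp, a synaptic vesicle chaperone (142.1, with 129.7 in replicate 1 and 15.6 in replicate 3), alphaSnap, which helps take SNARE complexes apart (79.4), and complexin, cpx (70.5). Voltage-gated channel genes had 4 of 21. The strongest was at NaCP60E (475.3), whose summit is also within 500 bp of a TSS of the ribosomal protein gene RpL41. The others were the potassium channel subunit gene Hk (234.4), the calcium channel subunit gene Ca-beta (114.2) and Ih (60.6). Genes of neuronal identity, adhesion and cytoskeleton had 7 of 31, with the strongest at neurexin, Nrx-1 (185.6), the translational regulator Fmr1 (150.8), and the adhesion genes Fas2 (103.9) and Lar (98.7). Fmr1 and Lar had no matching summit in replicate 3. A short list of glial markers, set beside the neuronal ones, had 3 of 10 (moody 874.2, in a summit inside CG4313, Gs2 171.9 and pnt 87.4).

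**Figure D5:**
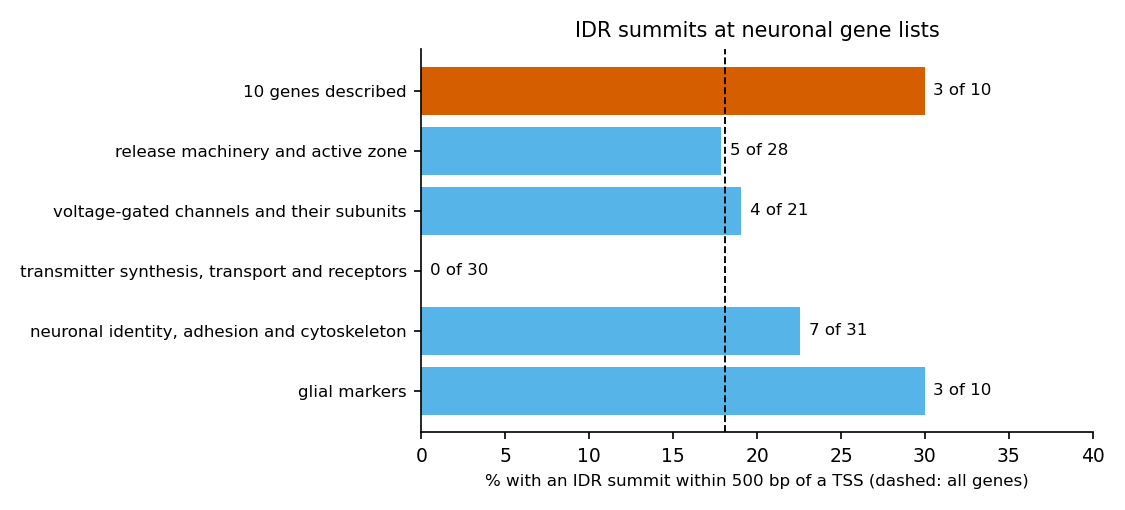
Percentage with an IDR summit in the 500 bp window around a TSS among the 10 genes described, the 4 lists of other neuronal genes and the glial markers, with counts beside the bars and a dashed line at the 18.1% of all protein-coding genes. The transmitter list is at 0 of 30 and the other lists lie on both sides of the line.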

How the data were processed

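Peak lists on the dm6 build were used. Per the deposited text listings, each replicate's list was called from its own alignments against 1 control file shared by both, the pooled list from both alignments, and the IDR list from these 3. For the aligner, peak caller, IDR threshold and read depth, details were not given in the sources used here, and the depth behind each peak is unknown. The signal (column 7) and the −log10 of a q-value (column 9) are the authors' values, identified by the narrowPeak column order, and q-values here are converted from the deposited −log10. Among weak regions q does not fall steadily with signal, and ranks are by signal.

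Genes and TSSs (all transcript starts) came from Ensembl release 115, without transposable elements, and sequence from RefSeq, whose arm lengths hold every peak and gene. A summit counted at a gene within 500 bp of a TSS or inside the body, and summits within 100 bp were the same site. Window counting was checked on simulated peaks. With 1 group of 2 replicates, no test was made. The 10 genes, lists, motifs and naming rule (all 10 genes, genes holding or adjoining their summits, and up to 4 genes per list by strongest signal) were chosen with earlier results of these data known. Of 113 list entries, 110 matched a gene. The dm3 lists were not used here. Alternatives varied the window, peak set, matching distance and replicate. Scripts ran in Python 3.11.15 with pandas 2.3.3, numpy 2.4.6 and matplotlib 3.10.9 for figures. The labels name Hr96 as antibody and, elsewhere, an antibody to GFP.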

Additional observations from a re-analysis of the deposited data

How the results depend on the processing

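The count of 3 genes with an IDR summit at a TSS fell to 1 (Syx1A) with a window of 250 bp and ranged from 1 (elav, without replicate 1) to 3 (without replicate 3) by the strongest peaks of 1 library. It was 3 with 1000 bp and with peak intervals in place of summits (all genes 19.4%), and 2 among the 1803 strongest IDR peaks. The count with a summit in the body was 4, and 2 (elav and Rbp9) among those 1803, and 3 to 4 by 1 library. With peak intervals it was 4 again, while the share of all genes rose from 10.8% to 18.5%. Of the other neuronal genes 16 had a summit at a TSS, 8 among those 1803 (where all genes fell from 18.1% to 11.3%), and 14 to 16 by 1 library. The 8 genes with a pooled summit at a TSS became 6 at 250 bp and 10 at 1000 bp. Of the 6 IDR sites, 5 were in both replicates with matching at 100 or 200 bp and 4 at 50 bp. No paired analysis was possible because both replicates belong to 1 group. Unknown depth limits what absence of a summit can show.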
